A study of Mus musculus with 12 samples.

Results

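This account follows 9 enzymes that make or break down heme, out of 21651 genes measured in mouse fat. They are 7 enzymes of heme synthesis, Alas1, Alad, Uros, Urod, Cpox, Ppox and Fech, and both heme oxygenases, Hmox1 and Hmox2. The members were taken by gene symbol, whatever their values, and each was measured by 1 probe set. Total RNA of white fat (white adipose tissue, WAT) and brown fat (brown adipose tissue, BAT) of male C57 mice, 4 months old and fed chow, was hybridised to Affymetrix mouse gene arrays. All mice were ob/ob, so they lacked the satiety hormone leptin and were obese. The control groups were ob/ob WAT and ob/ob BAT. The other groups were WAT and BAT of ob/ob/Cidea-/-/Cidec-/- mice, called triple mutants here, which are labelled as also lacking Cidea and Cidec, proteins that make lipid droplets fuse and grow. Each of the 4 groups held 3 arrays, the depot of white fat is not named in the labels, and lean mice were not analysed here. The labels do not state whether the 3 arrays of a group are 3 animals, so each p-value measures the spread among arrays, and that spread may be technical.

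Heme is an iron-holding ring that carries electrons in the mitochondrial cytochromes, binds oxygen in globins and works in catalase and cytochrome P450 enzymes. Its synthesis starts in the mitochondrion, where Alas1 joins glycine and succinyl-CoA in the rate-limiting step outside red blood cells. It continues in the cytosol with Alad, Uros and Urod among its enzymes, and ends in the mitochondrion, where Cpox and Ppox oxidise the ring and Fech inserts iron. Heme oxygenases open the ring and release iron, carbon monoxide and biliverdin. Hmox1 is the inducible form, prominent in macrophages that clear red blood cells, and Hmox2 is the constitutive form. Brown fat is rich in mitochondria and so in heme proteins.

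The promoters of 5 synthesis enzymes are shown first because their letters can be set beside the way the genes moved. RefSeq windows on build GRCm38.p6, from 250 bases before to 50 bases after an annotated start, were found for 7 of the 9 members, Hmox2 and Ppox among them. Fech and Hmox1 were not among them. Capitals mark 3 motifs, searched on both strands: NRF1 (GCGCA and GCGC with any base between them, bound by a factor that drives mitochondrial genes), the E-box (CACGTG) and the GATA factor motif (TTATCT). All windows are on the minus strand except that of Cpox, and all are written 5′ to 3′.
Alas1, chr9:106247681-106247980: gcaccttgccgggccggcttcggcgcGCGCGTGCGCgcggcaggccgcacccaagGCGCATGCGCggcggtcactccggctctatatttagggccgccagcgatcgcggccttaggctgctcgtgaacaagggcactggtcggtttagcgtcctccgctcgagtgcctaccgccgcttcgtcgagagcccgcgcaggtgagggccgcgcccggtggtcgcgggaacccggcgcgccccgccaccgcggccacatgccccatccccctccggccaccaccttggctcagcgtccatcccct
Uros, chr7:133709246-133709545: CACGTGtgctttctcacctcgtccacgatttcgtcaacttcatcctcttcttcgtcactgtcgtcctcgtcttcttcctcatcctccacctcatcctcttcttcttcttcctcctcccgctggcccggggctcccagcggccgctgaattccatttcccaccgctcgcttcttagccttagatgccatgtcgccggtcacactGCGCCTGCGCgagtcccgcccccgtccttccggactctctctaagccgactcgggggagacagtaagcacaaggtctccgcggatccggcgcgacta
Alad, chr4:62519860-62520159: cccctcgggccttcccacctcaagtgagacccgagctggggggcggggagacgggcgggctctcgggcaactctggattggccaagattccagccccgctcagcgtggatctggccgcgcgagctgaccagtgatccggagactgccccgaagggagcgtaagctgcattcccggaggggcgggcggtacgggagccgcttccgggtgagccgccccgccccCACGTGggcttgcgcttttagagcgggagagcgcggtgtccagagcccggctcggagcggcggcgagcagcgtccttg
Urod, chr4:116994364-116994663: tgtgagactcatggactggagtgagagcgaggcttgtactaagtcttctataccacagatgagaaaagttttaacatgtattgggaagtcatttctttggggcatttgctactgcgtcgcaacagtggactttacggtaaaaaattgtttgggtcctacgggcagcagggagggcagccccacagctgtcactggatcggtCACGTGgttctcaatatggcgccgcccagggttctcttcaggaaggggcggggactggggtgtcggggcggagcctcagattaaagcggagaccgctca
Cpox, chr16:58669958-58670257: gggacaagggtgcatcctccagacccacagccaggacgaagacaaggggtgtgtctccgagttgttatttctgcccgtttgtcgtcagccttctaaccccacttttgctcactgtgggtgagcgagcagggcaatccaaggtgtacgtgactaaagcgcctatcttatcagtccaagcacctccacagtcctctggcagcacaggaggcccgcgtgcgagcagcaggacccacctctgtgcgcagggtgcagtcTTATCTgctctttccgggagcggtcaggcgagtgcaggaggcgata
Alas1 held 2 NRF1 matches in the window printed, beginning 224 and 195 bases before the start, and Uros held 1, beginning 47 bases before it. Alas1, Alad and Uros each have another annotated start, whose window is not printed. In that window of Alas1 the same matches begin at bases 1 and 30 counted from the start. The other Uros window held none of the 3 marked motifs. NRF1 matches were thus found in 2 of 7 matched members, where 5.19% of 27025 genes with a window had one. E-boxes lay in the windows of Alad, Urod and Uros, 3 of 7 members against 8.09% of all genes. The GATA factor motif was found in Cpox, 5 bases after the start, and in 12.7% of all genes. The core of the antioxidant response element (TGACNNNGC), found in many NRF2 targets, was in 0 of 7 members and in 13.99% of all genes. CCAAT boxes (CCAAT) were in 3 of 7 members and 41.06% of all genes, and Sp1 GC boxes (GGGCGG) in 6 of 7 members and 38.2% of all genes. None of these strings of letters contains another. These matches describe letters in a window and are no measure of binding.

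The values are log2 values after RMA (robust multi-array average, which corrects background, makes the distributions of the arrays equal and summarises the probes of a gene), so a difference of 1 is a 2-fold difference in signal. A probe set was read against the highest of 45 antigenomic control probe sets on its array, which lay between 7.40 and 8.13 over the 12 arrays. Alas1, Alad, Urod and Hmox2 were above it on every array. Cpox was below it on every array, and Uros on all but 1 triple mutant WAT array and 1 triple mutant BAT array, so no fold is given for this pair. Cidea, one of the targeted genes, ranged from 4.86 to 5.55 in ob/ob WAT and from 8.42 to 10.03 in triple mutant WAT, and was 11.29 or more on every BAT array of either genotype. Cidec was between 10.59 and 11.87 on all arrays. Since no source used here says where the probes lie relative to the deletions, these signals check no label. Brown fat markers, 15 genes with Cidea among them, were on the side the labels give. Their mean was 5.75 to 6.21 in ob/ob WAT and 8.73 to 8.90 in ob/ob BAT. It was 8.02 to 8.64 in triple mutant WAT and 9.32 to 9.52 in triple mutant BAT. The median log2 change of these 15 genes from ob/ob to triple mutant was 2.85 in WAT and 0.34 in BAT.

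Levels of cell type markers differed between the samples as well. The mean of 25 macrophage markers was 9.91 to 10.22 in ob/ob WAT, 6.87 to 7.07 in triple mutant WAT, 7.70 to 8.89 in ob/ob BAT and 6.44 to 6.76 in triple mutant BAT. Of these markers, 22, 6, 13 and 2 had a group mean above the highest control in those groups, in that order. The mean of 18 adipocyte markers, Cidec among them, was 10.09 to 10.95, 11.53 to 11.61, 11.18 to 11.25 and 11.44 to 11.49 in the same order. Skeletal muscle markers, 15 genes, stayed at 5.58 to 5.74 on all WAT arrays but ran from 6.51 to 11.05 on BAT arrays, with no order by genotype. In bulk tissue, fewer cells of a type and less RNA per cell cannot be told apart, and the part these cell types have in each result below was not tested.

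**Figure D1:**
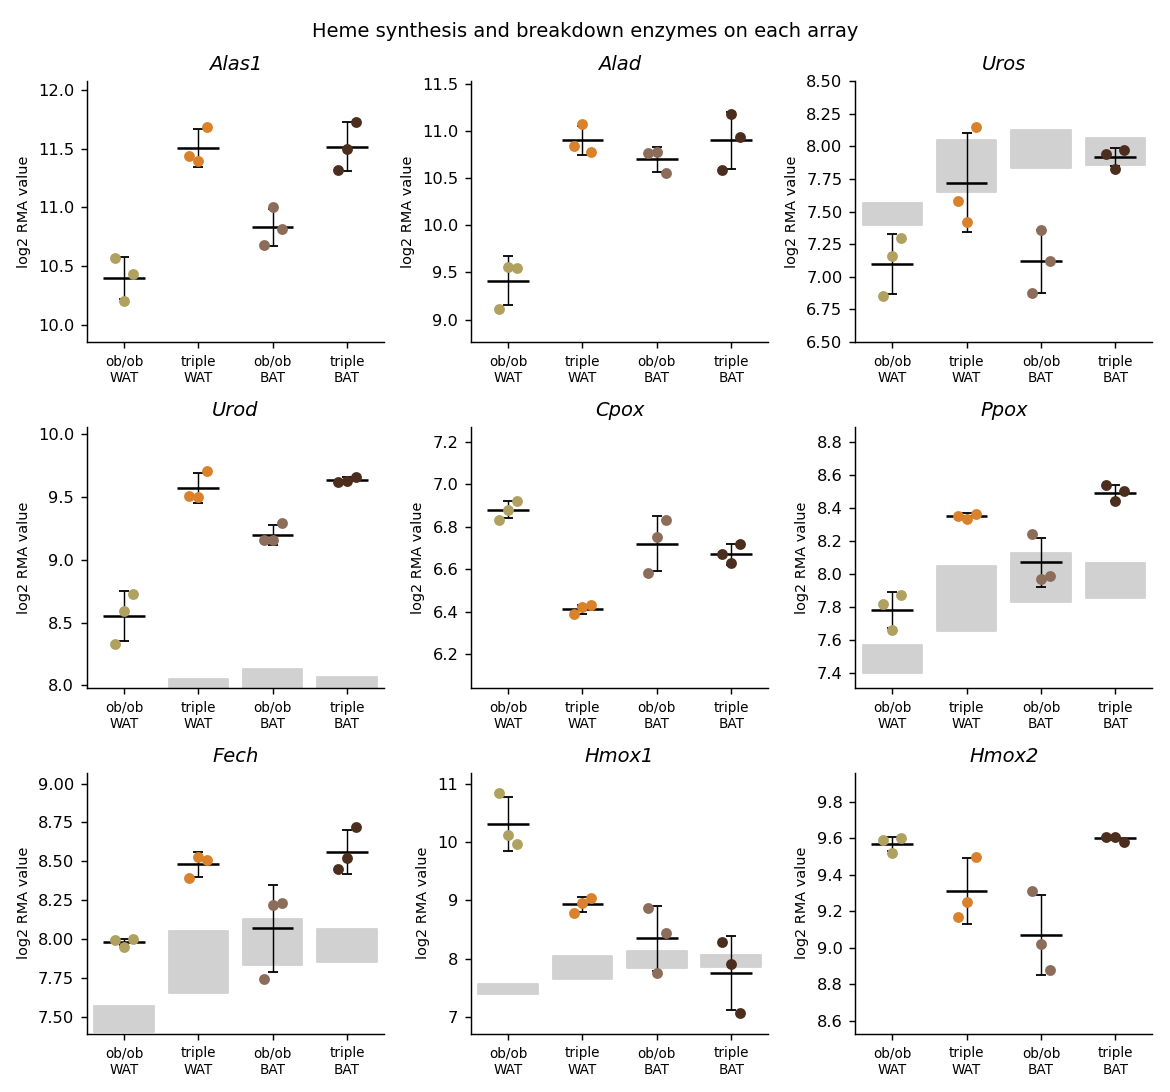
Log2 RMA value (vertical axis) of each of the 9 enzymes on every array, by group, where triple stands for triple mutant. Points are arrays, horizontal bars are means of 3 arrays, error bars are 1 SD, and grey bands span the highest antigenomic control on the 3 arrays of the group. Triple mutant points lie above ob/ob points in both tissues for Alas1, Uros, Urod, Ppox and Fech, while Hmox1 is highest in ob/ob WAT. A band outside a panel's range is not drawn, which is why none appears for Cpox, whose values all lie below it.

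In WAT, every heme synthesis enzyme of the 9 except Cpox was higher in triple mutants than in ob/ob mice, and Hmox1 was lower. Of the 9 members, 6 rose, 2 fell and Hmox2 was not called at a limma adjusted p under 0.05, against 34.3% of all genes called in either direction, 17.6% higher and 16.7% lower. All 7 synthesis enzymes were called, 6 of them higher. The median log2 change of the 9 was 0.56, and that of all genes was 0.04. In BAT, 6 members rose and 0 fell, while 17.4% of all genes were called, 10.4% higher and 6.97% lower. These 2251 higher and 1509 lower genes became 3432 and 929 when each array was centred on its median. The members' median change there was 0.43, and that of all genes was -0.03. By unadjusted p under 0.05, also 0 members fell in BAT. Groups did not overlap for 6 members in BAT, all higher in triple mutants, and for 35.5% of all genes, 18.2% higher and 17.3% lower.

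Alas1, which sets the pace of the pathway (chromosome 9, 106136258 to 106150187, build NCBIM37, as are all gene positions here), read 10.57, 10.20 and 10.43 on the ob/ob WAT arrays. On the triple mutant WAT arrays it read 11.44, 11.40 and 11.69. Every triple mutant array was thus above every ob/ob array. The log2 change was 1.11 ± 0.14 (SE, n = 3 arrays a group), a 2.15-fold rise (adjusted p = 7.89e-05). In BAT the values were 10.68, 11 and 10.82 in ob/ob and 11.32, 11.50 and 11.73 in triple mutants. The groups did not overlap here either, and Alas1 rose by 0.69 ± 0.14, or 1.61-fold (adjusted p = 0.00642). In ob/ob mice Alas1 was higher in BAT than in WAT by 0.43 (adjusted p = 0.0282), whereas in triple mutants the tissues differed by 0.01, with a 95% interval of -0.29 to 0.31. The order of the group means was therefore ob/ob WAT, ob/ob BAT, then triple mutant WAT and BAT at 11.51 and 11.52. The difference between the BAT and WAT changes, -0.42, did not pass the test (adjusted p = 0.171). The ob/ob tissue difference was not called without ob/ob WAT array 2 (0.33, adjusted p = 0.12), nor without ob/ob WAT array 3 or ob/ob BAT array 2 or 3.

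Alad, the zinc enzyme that condenses 5-aminolevulinate into porphobilinogen (chromosome 4, 62170202 to 62181097), showed the greatest rise of the 9 in WAT. Its values were 9.11, 9.56 and 9.55 in ob/ob WAT and 10.84, 11.07 and 10.78 in triple mutant WAT. The groups lay more than 1 log2 unit apart, and the change was 1.49 ± 0.16, or 2.80-fold (adjusted p = 3.34e-05). In BAT the arrays read 10.77, 10.78 and 10.55 in ob/ob and 10.59, 11.18 and 10.94 in triple mutants. These groups overlapped, with a difference of 0.20 ± 0.16 (95% interval -0.15 to 0.56, adjusted p = 0.438). The test of the difference between the genotype effects was passed, at -1.28 ± 0.23 (adjusted p = 0.00582). Alad in ob/ob WAT thus stood apart from the other 3 groups: ob/ob BAT exceeded it by 1.29 (adjusted p = 0.000132), and triple mutant WAT and BAT differed by only 0.01 (95% interval -0.35 to 0.37).

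Uros, which closes the tetrapyrrole ring (chromosome 7, 140878013 to 140900978), was dim. It read 6.85, 7.16 and 7.30 in ob/ob WAT and 7.58, 7.42 and 8.15 in triple mutant WAT. In BAT it read 6.88, 7.36 and 7.12 in ob/ob and 7.94, 7.83 and 7.97 in triple mutants. Triple mutant arrays were above ob/ob arrays in both tissues. Uros rose by 0.61 ± 0.19 in WAT (adjusted p = 0.0238) and by 0.80 ± 0.19 in BAT (adjusted p = 0.0136) on the log2 scale. All ob/ob values lay under the highest control, as did all but 1 triple mutant array in each tissue, so the size of both rises is uncertain. The WAT change was 0.39 without triple mutant WAT array 3 (adjusted p = 0.0834) and 0.48 without ob/ob WAT array 1 (adjusted p = 0.102), and neither passed. The BAT change was not called without ob/ob BAT array 1 (0.68, adjusted p = 0.0502). Neither genotype showed a called difference between tissues (0.01 for ob/ob mice, 0.20 for triple mutants).

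Urod, which removes carboxyl groups from the ring in the cytosol (chromosome 4, 116662822 to 116666980), read 8.33, 8.59 and 8.73 in ob/ob WAT and 9.51, 9.50 and 9.71 in triple mutant WAT. The rise of 1.02 ± 0.11, or 2.03-fold, had the smallest adjusted p of the members (2.27e-05). In BAT it read 9.16, 9.16 and 9.29 in ob/ob and 9.62, 9.63 and 9.66 in triple mutants, whose 3 arrays agreed within 0.05. The groups were again apart, and Urod rose by 0.43 ± 0.11, or 1.35-fold (adjusted p = 0.0162). Leaving out ob/ob BAT array 1 ended that call (adjusted p = 0.0512), as did leaving out triple mutant BAT array 3 (adjusted p = 0.0528). The BAT effect was the smaller one by the test of the difference (-0.59 ± 0.15, adjusted p = 0.025), a call that leaving out ob/ob BAT array 3 or triple mutant BAT array 1 or 2 ended, at adjusted p up to 0.0636. Urod was higher in ob/ob BAT than in ob/ob WAT by 0.65 (adjusted p = 0.000631), and the tissues of triple mutants differed by 0.07 (95% interval -0.17 to 0.30).

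Cpox, the coproporphyrinogen oxidase (chromosome 16, 58670405 to 58680474), went the other way from the other synthesis enzymes in WAT. It read 6.83, 6.88 and 6.92 in ob/ob WAT and 6.39, 6.42 and 6.43 in triple mutant WAT. Its replicates agreed within 0.09 in both groups, and it fell by 0.46 on the log2 scale (SE 0.08, adjusted p = 0.000763). All of these values lay under the highest control, so the size of the fall is uncertain. In BAT it read 6.58, 6.75 and 6.83 in ob/ob and 6.67, 6.63 and 6.72 in triple mutants, groups that overlapped (-0.05 ± 0.08, adjusted p = 0.722). The BAT difference exceeded the WAT difference by 0.41 ± 0.11 (adjusted p = 0.0327), yet leaving out any array but triple mutant WAT array 3 or ob/ob BAT array 2 or 3 took that past the threshold, to at most 0.0702. In triple mutants Cpox was higher in BAT than in WAT by 0.26 (adjusted p = 0.0504), and with genotype and replicate number as a random block this was called (adjusted p = 0.0236).

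Ppox and Fech complete the pathway at the inner mitochondrial membrane. Ppox, which oxidises protoporphyrinogen (chromosome 1, 173207096 to 173211317), read 7.82, 7.66 and 7.87 in ob/ob WAT and 8.35, 8.33 and 8.36 in triple mutant WAT. It read 8.24, 7.97 and 7.99 in ob/ob BAT and 8.54, 8.44 and 8.5 in triple mutant BAT. Neither pair of groups overlapped. Ob/ob BAT array 3 was under the highest control for Ppox, and every other array was above it. The rise was 0.56 ± 0.09 in WAT, or 1.48-fold (adjusted p = 0.000491), and 0.43 ± 0.09 in BAT (adjusted p = 0.00889). Ppox was also higher in ob/ob BAT than in ob/ob WAT by 0.28 (adjusted p = 0.0302), a call that ended when ob/ob BAT array 1 or ob/ob WAT array 1 or 2 was left out, at values down to 0.19. Fech, the ferrochelatase (chromosome 18, 64616202 to 64648720), read 7.99, 7.95 and 8 in ob/ob WAT and 8.39, 8.53 and 8.51 in triple mutant WAT. Its BAT values were 7.74, 8.22 and 8.23 in ob/ob and 8.45, 8.52 and 8.72 in triple mutants. Only ob/ob BAT array 1 was under the highest control for Fech. Triple mutant arrays were higher throughout, by 0.50 ± 0.13 in each tissue, with adjusted p = 0.00946 in WAT and 0.0199 in BAT. The BAT call did not hold without triple mutant BAT array 3 (0.42, adjusted p = 0.0783). The genotype effects on Fech differed between tissues by 0.00 (95% interval -0.39 to 0.40) and those on Ppox by -0.14 (-0.42 to 0.14).

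**Figure D2:**
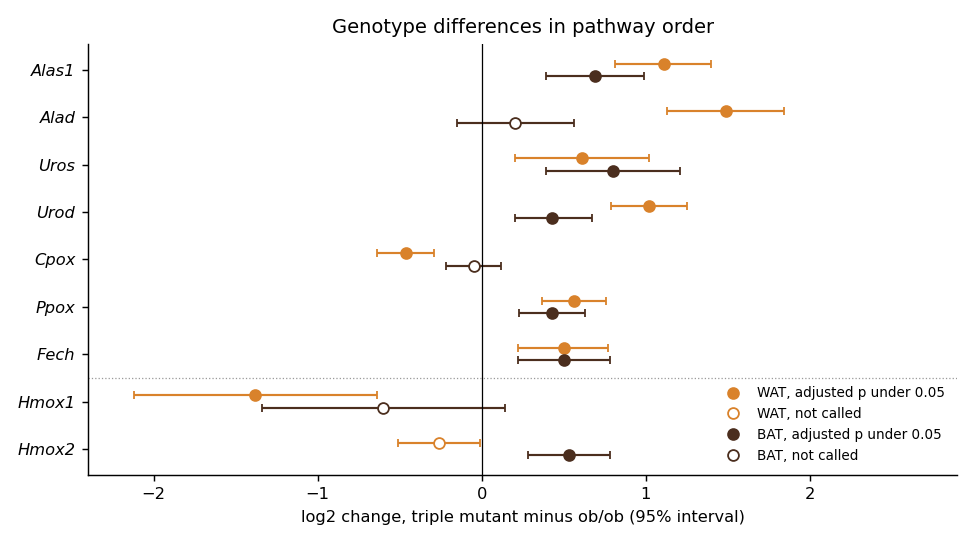
Log2 change from ob/ob to triple mutant (horizontal axis) of each enzyme, in pathway order from the top, in WAT (orange) and BAT (brown), each from 3 arrays against 3. Bars are 95% intervals of limma, filled points have an adjusted p under 0.05, and the dotted line parts synthesis enzymes from heme oxygenases. Alad changed by 1.49 in WAT and 0.20 in BAT, and Hmox2 by -0.26 and 0.53.

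Hmox1, the heme oxygenase that oxidants and heme induce (chromosome 8, 77617521 to 77624489), was the member with the largest differences between tissues. It read 10.84, 10.12 and 9.96 in ob/ob WAT and 8.78, 8.96 and 9.04 in triple mutant WAT. The lowest ob/ob array was above the highest triple mutant array, and Hmox1 fell by 1.38 on the log2 scale, with an SE of 0.34, which is 2.60-fold lower (adjusted p = 0.00733). In BAT it read 8.86, 7.75 and 8.43 in ob/ob and 8.29, 7.90 and 7.06 in triple mutants. These groups overlapped and were the widest of any member, spanning 1.11 and 1.23. The BAT difference was -0.60 ± 0.34 (95% interval -1.34 to 0.14, adjusted p = 0.259), and 1 ob/ob and 2 triple mutant BAT arrays were under the highest control. The effects in WAT and BAT were not shown to differ (0.78 ± 0.48, adjusted p = 0.298). Hmox1 was lower in BAT than in WAT by 1.96 in ob/ob (log2 change -1.96, adjusted p = 0.000949). In triple mutants the tissue difference was -1.18 (adjusted p = 0.0379), a call lost without any of the triple mutant WAT arrays, triple mutant BAT array 2 or 3, ob/ob WAT array 2 or ob/ob BAT array 3, with values of -1.25 to -0.83.

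The macrophage markers moved on the same side as Hmox1. Of 25, 22 fell in WAT with a median log2 change of -3.32, and 21 fell in BAT with a median of -1.5, while 0 rose in either tissue, by limma's adjusted or unadjusted p. Of these markers 88% were called in WAT and 84% in BAT, against 34.3% and 17.4% of all genes. The array with the highest Hmox1 in each ob/ob group, array 1, was also the array with the highest macrophage mean, at 10.22 in WAT and 8.89 in BAT. Within triple mutant WAT the order was the opposite, with the lowest Hmox1 (8.78) beside the highest macrophage mean (7.07). In triple mutant BAT both ran in the same order, with Hmox1 at 8.29, 7.90 and 7.06 and the macrophage mean at 6.76, 6.59 and 6.44. There only 2 of the 25 markers had a group mean above the highest control. The skeletal muscle mean ran in that order too, at 10.62, 8.29 and 6.51. In ob/ob BAT array 1 had the lowest muscle mean, at 7.72 beside 11.05 and 10.81. The part of macrophages or muscle in the level of Hmox1 was not tested. Over the 12 arrays the genes that followed Hmox1 most closely were Hnrnpk (Pearson r = 0.970), Cltc (0.961), Wwp2 and Arf2 (0.958 each) and Nup93 (0.956), among 10523 genes with a mean log2 value of at least 6. These arrays fall into 4 groups, so r also holds the differences between group means, and no p is given.

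**Figure D3:**
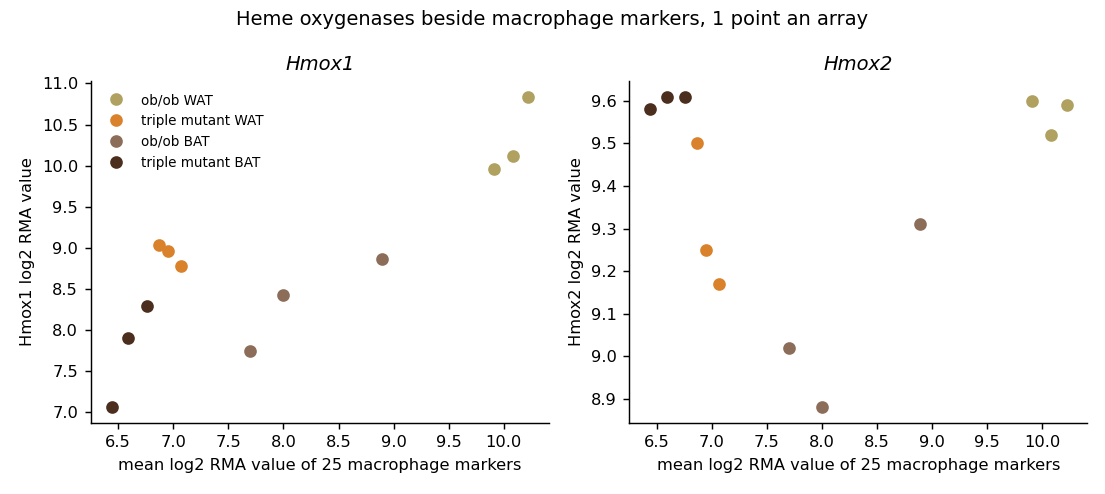
Log2 RMA value of Hmox1 (left) and Hmox2 (right) on the vertical axis against the mean log2 value of 25 macrophage markers on the horizontal axis, 1 point an array, coloured by group. Hmox1 and the macrophage mean are highest in ob/ob WAT and lowest in triple mutant BAT. Hmox2 is near 9.6 at both ends of the macrophage scale, in ob/ob WAT and in triple mutant BAT.

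Hmox2, the constitutive heme oxygenase (chromosome 16, 4726389 to 4766249), had its lowest mean in ob/ob BAT. It read 9.59, 9.52 and 9.60 in ob/ob WAT and 9.17, 9.25 and 9.50 in triple mutant WAT, a difference of -0.26 ± 0.11 that was not called (adjusted p = 0.103) although the groups did not overlap. In WAT groups did not overlap for all 9 members, 6 higher and 3 lower, and for 46.6% of all genes, 24.9% higher and 21.8% lower. Without triple mutant WAT array 3 the difference was -0.36 and was called (adjusted p = 0.0314). In BAT it read 9.31, 9.02 and 8.88 in ob/ob and 9.61, 9.61 and 9.58 in triple mutants. There it rose by 0.53 ± 0.11, or 1.44-fold (adjusted p = 0.00953), and the triple mutant arrays agreed within 0.02. The test of the difference between tissues was passed (0.79 ± 0.16, adjusted p = 0.0101). In ob/ob mice Hmox2 was lower in BAT than in WAT (log2 change -0.50, adjusted p = 0.00551), and in triple mutants the sign was opposite but the difference of 0.29 was not called (adjusted p = 0.118). Hmox2 was called there without triple mutant WAT array 3 (0.39, adjusted p = 0.0372) and with array weights (0.36, adjusted p = 0.011). The closest followers of Hmox2 over the arrays were Pgap2 (r = 0.937), Pbx2 (0.935) and Ssu72 (0.925).

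Between tissues, fewer of these genes were called in triple mutants than in ob/ob mice. In ob/ob mice 4 members were higher in BAT and 2 lower, where 37.2% of all genes were called, 18.2% higher and 19% lower. Groups did not overlap for 7 members, 4 higher and 3 lower, and for 52.2% of all genes, 30.1% higher and 22% lower. In triple mutants 0 were higher (2, Cpox and Hmox2, by limma's unadjusted p under 0.05) and 1, Hmox1, was lower, where 14.4% were called, 6.45% higher and 7.93% lower. Groups did not overlap for 4 members, 3 higher in BAT and 1 lower, and for 32.7% of all genes, 16.7% higher and 16% lower. The share of all genes called was also smaller in triple mutants. After centring each array on its median, the split of all genes into higher and lower calls moved from 3940 and 4120 to 2838 and 4607 in ob/ob mice, and from 1396 and 1716 to 1863 and 1461 in triple mutants. Both comparisons draw on arrays that also enter the genotype comparisons, so the 4 are not independent. The difference between the genotype effects was called for 4 members, Alad, Urod, Cpox and Hmox2, and for 13.9% of all genes, 8.4% higher and 5.47% lower, or 1818 and 1184 genes (2798 and 798 after centring). Of the genes most like single members, Ears2, the mitochondrial glutamyl-tRNA synthetase, followed Alas1 (r = 0.977 over 12 arrays), with group means of 5.89, 6.46, 6.13 and 6.53 in ob/ob WAT, triple mutant WAT, ob/ob BAT and triple mutant BAT. All 4 means lay under the highest control of every array. Psmb3 and Svip came next (0.967 each). Zyg11b (0.957), Tex2 (0.949) and Hspb8 (0.947) were closest to Fech.

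Of the genes that serve heme synthesis without being members, more rose than fell in both tissues. Of 17 measured partners, 9 rose and 1 fell in WAT (median 0.53), and 9 rose and 0 fell in BAT (median 0.38), where 0 fell by limma's unadjusted p under 0.05 too. Alas2, described below with the erythroid markers, is also counted among these partners and among the rises in both tissues. Of the 17, 58.8% were called in WAT and 52.9% in BAT, against 34.3% and 17.4% of all genes. In BAT 6 of the 17 were called higher after quantile normalization within the tissue and 15 after centring each array on its median. Glrx5, which passes on iron-sulfur clusters, read 8.21, 8.42 and 8.68 in ob/ob WAT and 9.94, 9.87 and 9.98 in triple mutant WAT, a rise of 1.5 (adjusted p = 4.46e-06), and it rose by 0.59 in BAT (adjusted p = 0.0055). Clpx, the unfoldase that in yeast activates the enzyme corresponding to Alas1, rose by 1.27 in WAT (adjusted p = 6.16e-06) and by 0.89 in BAT (adjusted p = 0.000525). Slc25a39, a mitochondrial carrier needed for glutathione import, rose by 1.27 and 0.66 (adjusted p = 8.98e-06 and 0.0031). The single fall was that of Slc25a37, mitoferrin-1, which brings iron into mitochondria (-0.48 in WAT, adjusted p = 0.00449), and it is named here after its values were seen.

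Alas2, the red blood cell form of the first enzyme, read 5.92, 6.30 and 6.29 in ob/ob WAT and 7.71, 7.61 and 7.39 in triple mutant WAT. It rose by 1.4 in WAT (adjusted p = 1.3e-05) and by 0.55 in BAT (adjusted p = 0.0155), from below the highest control in both ob/ob groups. Triple mutant WAT arrays 2 and 3 were below that control as well, so the size of the WAT rise is uncertain. The BAT call on Alas2 was lost without ob/ob BAT array 3 or triple mutant BAT array 1 or 2 (adjusted p up to 0.0567). Of 14 erythroid markers, which include Alas2, 9 rose and 1 fell in WAT and 3 rose in BAT, or 1 in BAT without ob/ob BAT array 3 or triple mutant BAT array 1 or 2. Of them 71.4% were called in WAT and 21.4% in BAT, against 34.3% and 17.4% of all genes. Their mean was 6.37 to 6.72 in ob/ob WAT, 7.15 to 7.20 in triple mutant WAT, 7.13 to 7.28 in ob/ob BAT and 7.23 to 7.38 in triple mutant BAT, with 4 of 14 above the highest control in each group. The globin gene Hbb-b1, which shares sequence with its neighbour Hbb-b2, rose by 1.37 in WAT, and the part of blood in these values was not tested.

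Among genes that dispose of heme and move it, more fell than rose in WAT. Of 16 measured, 8 fell and 5 rose (median -0.32), and in BAT 2 fell and 2 rose (median -0.09), or 4 rose after centring. The share called was 81.2% in WAT and 25% in BAT, against 34.3% and 17.4% of all genes. The WAT falls were 5 when ob/ob WAT array 1 was left out. Flvcr1, the heme exporter of the cell surface, listed on the array as Mfsd7b, read 9.27, 9.11 and 8.41 in ob/ob WAT and 7.11, 7.13 and 6.74 in triple mutant WAT. That was a fall of 1.94 on the log2 scale (log2 change -1.94, adjusted p = 2.78e-05), whereas in BAT the change was -0.11 (adjusted p = 0.757), and the effects differed by 1.82 (adjusted p = 0.00357). Its 3 triple mutant WAT arrays lay below the highest control. Lrp1, the receptor that takes up heme bound to hemopexin, changed by -1.38 in WAT and -0.62 in BAT (adjusted p = 8.48e-06 and 0.00566). Biliverdin reductases follow the oxygenases: Blvra changed by -0.70 in WAT (adjusted p = 0.00139) and Blvrb by -0.48 (adjusted p = 0.0133), and neither was called in BAT, at 0.06 and -0.16. Blvrb was not called when triple mutant WAT array 2 or ob/ob WAT array 1 was left out. Slc48a1, which exports heme from lysosomes, changed by -0.52 in WAT (adjusted p = 0.00257), and Ftl1, the ferritin light chain, by -1.09 (adjusted p = 9.22e-05), with 3 probe sets and close copies in the genome that could share signal. Hebp2, a heme-binding protein, went up by 2.40 in WAT and by 1.55 in BAT (adjusted p = 4.52e-05 and 0.00379).

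**Figure D4:**
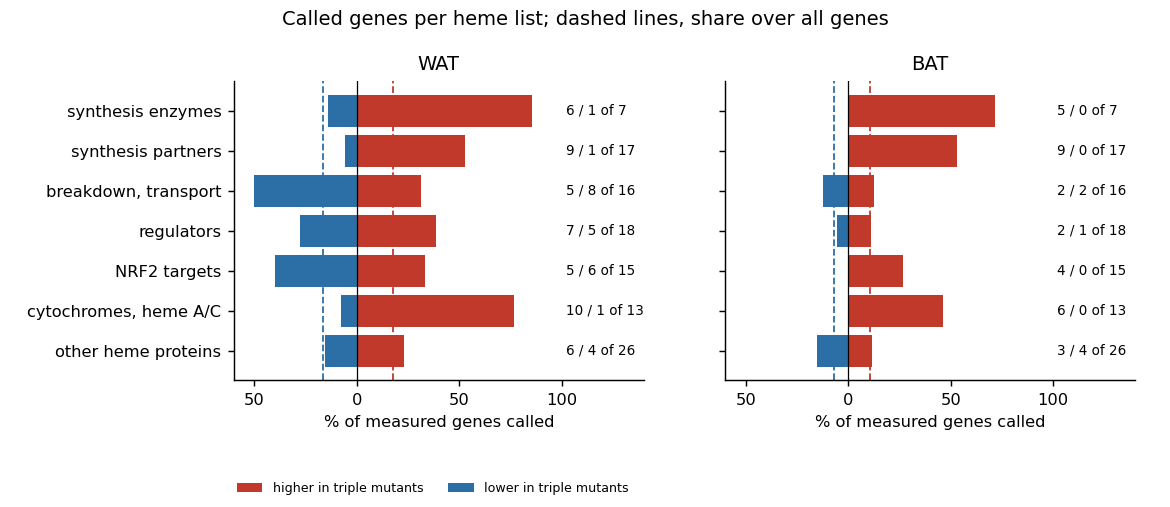
Percent of the measured genes of 7 heme lists, cell markers and heme oxygenases not among them, that were called higher (red, to the right) or lower (blue, to the left) in triple mutants, in WAT and in BAT, with the counts of higher and lower genes at the right. Dashed lines are the percent of all 21651 genes called higher and lower. Synthesis enzymes, their partners and the cytochromes reach further to the right in both tissues than the other lists drawn, and of these lists the breakdown and transport genes reach furthest to the left in WAT.

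Regulators known to sense heme or to control these enzymes were divided in WAT. Of 18, 7 rose and 5 fell in WAT, and 2 rose and 1 fell in BAT. In WAT 66.7% of them were called, against 34.3% of all genes, and in BAT 16.7%, near the 17.4% of all genes. Without ob/ob WAT array 2 or 3 the falls in WAT were 3, and without triple mutant BAT array 1 the rises in BAT were 0, and they were 1 without triple mutant BAT array 2 or 3 or ob/ob BAT array 1 or 2. Bach1, the heme-binding repressor of Hmox1, read 8.78, 8.45 and 8.34 in ob/ob WAT and 7.28, 7.41 and 7.32 in triple mutant WAT. Bach1 thus changed by -1.19 in WAT, on the same side as its target (adjusted p = 2.03e-05), and by -0.20 in BAT (adjusted p = 0.293). Its triple mutant WAT values all lay under the highest control of their arrays, so the size of the WAT fall is uncertain. Nfe2l2, which encodes NRF2, the activator that competes with Bach1, changed by -0.74 in WAT (adjusted p = 0.000143) and by 0.11 in BAT (adjusted p = 0.483). For both, the difference between tissues was itself called, at 0.99 for Bach1 (adjusted p = 0.00499) and 0.85 for Nfe2l2 (adjusted p = 0.00414). Ppargc1a, a coactivator that induces Alas1 in mouse liver, rose by 2.85 in WAT (adjusted p = 2.91e-05) and its BAT difference of 0.38 was not called (adjusted p = 0.441). Nrf1, the gene of the factor whose motif stands in the Alas1 and Uros windows, changed by -0.25 in WAT (adjusted p = 0.0468) and by -0.01 in BAT (adjusted p = 0.952), and is named here after its values were seen. Ppargc1b, a relative of Ppargc1a, rose in both, by 1.61 and 0.51 (adjusted p = 1.27e-05 and 0.038). The heme-sensing nuclear receptors Nr1d1 and Nr1d2 were not called in WAT, at 0.98 (adjusted p = 0.091) and -0.49 (adjusted p = 0.214), nor in BAT. Without ob/ob BAT array 3 the WAT change of Nr1d1 was called (adjusted p = 0.0483), and with array weights it was 1.52 and called (adjusted p = 0.00453).

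Targets of NRF2 other than Hmox1 showed no single direction in WAT. Of 15, 5 rose and 6 fell (median -0.06), and 3 fell when any array of triple mutant WAT or array 1 of ob/ob WAT was left out. Together 73.3% of them were called in WAT and 26.7% in BAT, against 34.3% and 17.4% of all genes. Gsta4, a glutathione transferase, rose by 3.67 and the pentose phosphate enzyme Taldo1 by 0.98 (adjusted p = 1.42e-06 and 2.27e-05). Prdx1, a peroxiredoxin, changed by -0.66 (adjusted p = 0.00257). In BAT 4 rose and 0 fell, also 0 by limma's unadjusted p, with Gsta4 at 1.70, Pgd, another pentose phosphate enzyme, at 0.68 and Taldo1 at 0.62 on the log2 scale, and 1 fell when only the BAT arrays were fitted.

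Proteins that use heme are taken here by where they work. Of 13 genes of mitochondrial cytochromes, their complexes and the enzymes that modify their heme, 10 rose and 1 fell in WAT (median 0.88). The share called was 84.6% in WAT and 46.2% in BAT, against 34.3% and 17.4% of all genes. Cyc1, cytochrome c1 of complex III, read 9.10, 9.16 and 9.41 in ob/ob WAT and 10.97, 10.82 and 11.40 in triple mutant WAT, a rise of 1.84 (adjusted p = 5.71e-06). Cycs, cytochrome c itself, rose by 0.82 in WAT (adjusted p = 2.77e-05), and its BAT difference of 0.21 was not called (adjusted p = 0.137). With the gene's probe sets averaged, the BAT difference of Cycs was 0.63 and was called (adjusted p = 0.00947), as it was after centring (0.31, adjusted p = 0.0461). In BAT 6 of the 13 rose and 0 fell, also 0 by limma's unadjusted p, and centring the arrays made this 11. Cox15, which makes heme A for cytochrome oxidase, rose there by 0.47 (adjusted p = 0.0033). The single fall in WAT, named after its value was seen, was that of Cyb5r1, a cytochrome b5 reductase (-0.37, adjusted p = 0.0252), a call that ended when ob/ob WAT array 1 or 3, or array 1 or 2 of triple mutant WAT, was left out.

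Other heme proteins, 26 genes, gave 6 rises and 4 falls in WAT and 3 rises and 4 falls in BAT, or 2 falls in BAT without triple mutant BAT array 3. In WAT 38.5% of them were called, near the 34.3% of all genes, and in BAT 26.9%, against 17.4%. Over all genes 17.6% rose and 16.7% fell in WAT, and 10.4% rose and 6.97% fell in BAT. Catalase (Cat), the peroxisomal heme enzyme that breaks down hydrogen peroxide, rose by 0.88 in WAT and by 0.79 in BAT (adjusted p = 6.05e-06 and 0.000245). Cybb and Cyba, the subunits of the heme-holding cytochrome b of the phagocyte NADPH oxidase, changed by -3.20 and -3 in WAT (adjusted p = 6.13e-06 and 1.34e-05), and the macrophage means above moved on the same side. Nos3, the endothelial nitric oxide synthase, rose by 1.33 in WAT (adjusted p = 2.96e-05), where 7 of 13 endothelial markers also rose.

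The authors' deposited table of changed probe sets for WAT lists 7 of the 9 members, all but Uros and Hmox2. In the authors' deposited table their log2 fold changes are 1.10 for Alas1, 1.45 for Alad, 1.02 for Urod, -0.39 for Cpox, 0.55 for Ppox, 0.49 for Fech and -1.26 for Hmox1. The authors' deposited table for BAT lists only Uros (0.64) and Urod (0.42) of the members, within 1164 probe sets against 5945 for WAT. In the authors' deposited table of terms for genes higher in WAT, heme biosynthetic process holds 6 of 19 genes, Alad, Alas1, Alas2, Cox10, Slc25a39 and Urod, at a fold enrichment of 4.34 and a Benjamini-adjusted p of 0.33.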

How the data were processed

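Expression was measured on 12 Affymetrix mouse gene arrays, 3 in each of 4 groups, grouped by their titles. The values used are the deposited log2 values of 35556 probe sets an array. RMA and limma are named, with no version, per the submitters' processing notes. Gene symbols, positions and probe set categories came from the annotation of the authors' expression table, whose Ensembl entries name build NCBIM37, per the file headers. That table also holds 12 array columns that match no sample label and were not used. The authors' tables of changed genes hold log2 fold changes, and their term tables give each term a p-value and a fold enrichment (a ratio), per the file headers.

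Of 28350 probe sets of the main category, 25004 named 1 gene, and the probe set with the highest mean stood for a gene, which left 21651 genes. With limma 3.58.1 under R 4.3.3, lmFit and eBayes (8 residual and 3.47 prior degrees of freedom) were run on all 12 arrays with 4 group means. Tests were two-sided, with Benjamini-Hochberg adjustment over all genes and a threshold of 0.05. In simulated data on 21651 genes with independent noise, only 200 genes were changed, all in triple mutant WAT. Of those changed by 1 on the log2 scale 84% were recovered, and of those changed by 2, 97%. In the real WAT comparison 34.3% of genes were called, so these shares do not give the sensitivity of the calls above. The number of arrays limits the precision. Figures were drawn with matplotlib 3.10.9.

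Deviations from the group mean were correlated, over genes, between the WAT and the BAT array that share a genotype and title number. For ob/ob mice r was 0.217, 0.221 and 0.156, and for triple mutants it was 0.151, 0.212 and 0.186. For WAT and BAT arrays of 1 genotype with different numbers, r ran from -0.241 to 0.071. Deviations from a group mean cancel within the group, so a positive r for shared numbers by itself pushes r for different numbers down. Between the genotypes of 1 tissue, r ran from -0.43 to 0.114 for arrays that share a number and reached 0.323 for arrays that do not. The pairing comes from these values alone, and the main fit did not use it. As a random block of genotype and number it had a correlation of 0.205. With that block the difference between effects was called higher for 2532 genes and lower for 1953, against 1818 and 1184 in the main fit. The names of the unused columns carry 7 different numbers, 5 of them under both tissues, so by those names at least 1 array a tissue had no partner in the other.

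The members, the 14 gene lists, the motifs and the tests were chosen with earlier results of these data known. Named were all members, the 4 genes of each list with the smallest p in WAT and the 3 in BAT, genes fixed beside them (such as Alas2, Bach1 and Cycs) and the 5 genes with the highest r to Alas1, Fech, Hmox1 and Hmox2 (predicted genes, RIKEN clones and small RNAs left out). Not every such gene is printed, and 1 gene is not reported here. Lists of adipocyte, brown fat, macrophage, erythroid, muscle, endothelial, fibroblast and T and NK cell markers stood beside the heme lists. List genes were matched to array symbols through RefSeq synonyms.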

Additional observations from a re-analysis of the deposited data

Results flagged for a closer look

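For 4 members the genotype effect differed between WAT and BAT by the test of the difference itself (limma, adjusted p under 0.05), as it did for 13.9% of all genes. The effect on Alad was lower in BAT by -1.28 on the log2 scale and that on Urod by -0.59. The effect on Hmox2 was higher in BAT by 0.79 and that on Cpox by 0.41, the latter on values under the highest control. The calls on Alad and Hmox2 held under all 21 alternatives tried, that on Urod in 17 of 21 and that on Cpox in 11 of 21.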

How the results depend on the processing

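In WAT the calls on Alas1, Alad, Urod, Cpox, Ppox, Fech and Hmox1 held under all 22 alternatives tried, as did those on Alas1, Ppox and Hmox2 in BAT. Uros in WAT (0.61, adjusted p = 0.057) and Fech in BAT (0.50, adjusted p = 0.0731) were lost when only the arrays compared were fitted, and Urod (0.32) and Fech (0.41) in BAT after quantile normalization within each tissue. Array weights called Hmox2 in WAT (-0.30). Fitting only the compared arrays changes nothing for the difference between effects, which uses all arrays.

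The replicate block changed 1 call among the members: Cpox between the tissues of triple mutants was called with the number as a fixed term (0.26, adjusted p = 0.0482) and as a random term (0.26, adjusted p = 0.0236), so 1 member was called higher there.

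Other counts moved as follows. For the difference between effects, members called higher were 1 with trended robust moderation (1 to 2 leaving out an array), and members called lower were 1 after centring (1 to 2). BAT minus WAT in ob/ob had 2 members higher after centring (2 to 4 leaving out an array). In triple mutants 1 was higher with dim genes left out, with probe sets averaged and after centring, and 2 with array weights (0 to 1 leaving out an array), while 0 were lower with trended robust moderation (0 to 1). All genes called in BAT ranged from 2466 to 4056 leaving out an array. For the difference between effects they were 5478 with array weights and 1778 to 3399 leaving out an array, and between tissues of triple mutants 5532 and 1836 to 3589.

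Signs turned for small differences that were not called, and the cause was not tested. In BAT, Cpox was 0.05 after centring (-0.12 to 0.00 leaving out an array), Blvra -0.04 after quantile normalization (-0.05 to 0.19) and Nr1d2 at most 0.14 (-0.42 to 0.14). The difference between effects for Fech was -0.14 after quantile normalization and -0.10 with array weights (-0.16 to 0.09). Between tissues of ob/ob mice Uros was -0.04 after centring and 0.00 with array weights (-0.11 to 0.13). In triple mutants Alad was -0.03 after quantile normalization and -0.02 with array weights (-0.13 to 0.17), Urod was 0.00 after quantile normalization, and Alas1 was -0.10 to 0.11 leaving out an array.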

Other observations

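Cog6 (r = 0.937) and Adamts3 (r = 0.932) followed Fech over the 12 arrays after the genes already named, Ralgapa2 and Shpk (r = 0.966 each) followed Alas1, and Usp8 (r = 0.918) and Aldh9a1 (r = 0.916) followed Hmox2. The group means of Shpk and Adamts3 lay under the highest control of every array. Over all genes, 17.6% rose and 16.7% fell in WAT, and 10.4% rose and 6.97% fell in BAT. The results of the marker lists not given above were as follows. Of 18 adipocyte markers, which include the targeted gene Cidec, 13 rose and 0 fell in WAT, and 3 rose and 1 fell in BAT. The WAT falls were 1 after centring, after quantile normalization, and without ob/ob WAT array 1 or 3, among other alternatives. With array weights they were 2. The rises in BAT were 0 without any 1 array of triple mutant BAT, 1 without any 1 array of ob/ob BAT, 5 without ob/ob WAT array 1 and 6 after centring. The BAT fall was lost without triple mutant BAT array 1 or 3 or ob/ob BAT array 1 or 2. Of 15 brown fat markers, 10 rose in WAT, the targeted gene Cidea among them, and 3 in BAT, and 0 fell by limma's adjusted or unadjusted p. With only the BAT arrays fitted, 6 rose there. Of 15 muscle markers, 1 rose in WAT, and 0 changed in BAT by limma's adjusted or unadjusted p. In BAT 3 fell without triple mutant BAT array 1 and 1 without ob/ob BAT array 1, and in WAT 2 fell when only the WAT arrays were fitted. Of 13 fibroblast markers, 10 fell in each tissue, and of 13 T and NK cell markers 4 fell in WAT and 1 in BAT. Leaving out array 1 or 2 of ob/ob WAT made the WAT falls of the latter 1, and they were 2 without triple mutant WAT array 1 or 2 and 7 with array weights. In BAT, 1 of 13 endothelial markers rose and 4 fell, or 1 fell without ob/ob BAT array 1 or triple mutant BAT array 2 or 3.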
